A study of Danio rerio with 12 samples.

Results

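The Zbtb and Prdm genes encode 2 families of zinc finger proteins that mostly act as regulators of transcription, and their mRNAs were followed in zebrafish embryos with and without Znf598. Members were the Ensembl genes whose symbol begins with zbtb or prdm, with zbtb8os left out, that had more than 1 CPM (reads of a gene per 1000000 counts of the library) in at least 3 of 12 libraries. By this rule 51 genes were members, 36 zbtb and 15 prdm, of 59 genes with such symbols and of 15829 genes tested in all. The study sequenced total RNA from pools of whole embryos at 1 and 6 h post fertilization (hpf), before and after the maternal-to-zygotic transition (MZT). The wild type was the AB strain, and MZznf598 embryos had no working Znf598 of maternal or zygotic origin because of a frameshift deletion in znf598. Each of the 4 groups held 3 libraries. Znf598 is a ubiquitin ligase that marks collided ribosomes. The mutant is a single deletion line compared with AB embryos, so the deletion and any other difference between the stocks cannot be told apart. The labels do not say whether the 3 libraries of a group came from separate clutches, so p-values measure the spread between these libraries, which may be technical.

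Zbtb proteins carry an N-terminal BTB domain, which pairs 2 protein chains and recruits corepressor complexes or the Cul3 ubiquitin ligase, and C-terminal C2H2 zinc fingers that bind DNA. Prdm proteins carry a PR domain, a relative of the SET domain of histone methyltransferases, in most cases followed by C2H2 fingers. Both families are known for setting cell fates, among them those of blood, germ, muscle and nerve cells. Eggs are loaded with maternal mRNA, and the embryo's own transcription replaces it during the MZT.

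The targeted gene and the stages were examined first. The znf598 mRNA (ENSDARG00000014945) was at 128 to 142 CPM in wild type and 3.45 to 3.70 CPM in MZznf598 at 1 hpf. At 6 hpf it was at 62.6 to 111 CPM in wild type and 8.13 to 10.5 CPM in MZznf598, so the groups did not overlap at either stage. All 12 gastrula markers listed rose from 1 to 6 hpf in both genotypes, with a summed level of 2.43 to 4.60 CPM at 1 hpf and 4142 to 4558 CPM at 6 hpf in wild type, and of 2.57 to 3.52 and 4374 to 4389 CPM in MZznf598. Of 9 maternal markers tested, 7 fell in each genotype at an edgeR adjusted p below 0.01. In wild type ccnb1 changed by -0.07 on the log2 scale (SE 0.16) and ddx4 by 0.44 (SE 0.14, edgeR adjusted p = 0.0111). The maternal marker zar1 was lower in MZznf598 at 1 hpf (-0.85, SE 0.17, edgeR adjusted p = 0.00808). Library totals ran from 7144704 to 12162660 counts. The third wild-type library stood apart at both stages. Its chi-square per gene against the other wild-type libraries of its stage was 15.3 to 21.5, while all other replicate comparisons gave 2.72 to 5.51. At 6 hpf this library was also the shallowest, and it had the lowest level of the 3 wild-type libraries for 7 of 9 maternal markers and the lowest for 6 and the highest for 5 of 12 gastrula markers. The part of these differences in the results was not tested, and genotype calls that change without this library are given with and without it.

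The members together took 1420 ± 22.6 CPM of the library total in wild type at 1 hpf and 868 ± 36.1 at 6 hpf (SD, n = 3). In MZznf598 they took 1434 ± 45.2 and 904 ± 15.8 (SD, n = 3). These shares are of unscaled library totals. On that scale the median wild-type log2 fold change from 1 to 6 hpf was -0.55 over all genes and -1.05 over the members. With the scaling used below it was -0.02 and -0.52. The size of the fall taken alone thus depends on the scale. On both scales the median of the members lay below that of all genes by a similar amount. Values below are CPM after trimmed mean of M values (TMM) scaling of the library sizes. The mean count of a member over the libraries ran from 9.17 to 1100, with a median of 107. Means were above 1 CPM in all 4 groups for 39 members. The 8 genes below the minimum were prdm8, prdm8a, zbtb25, zbtb32, zbtb33, zbtb37, zbtb46 and zbtb7c, with at most 10 counts in any library, and prdm8 and zbtb25 had 0 counts in all 12 libraries. The 51 members are shown by library in the plot of levels.

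**Figure D1:**
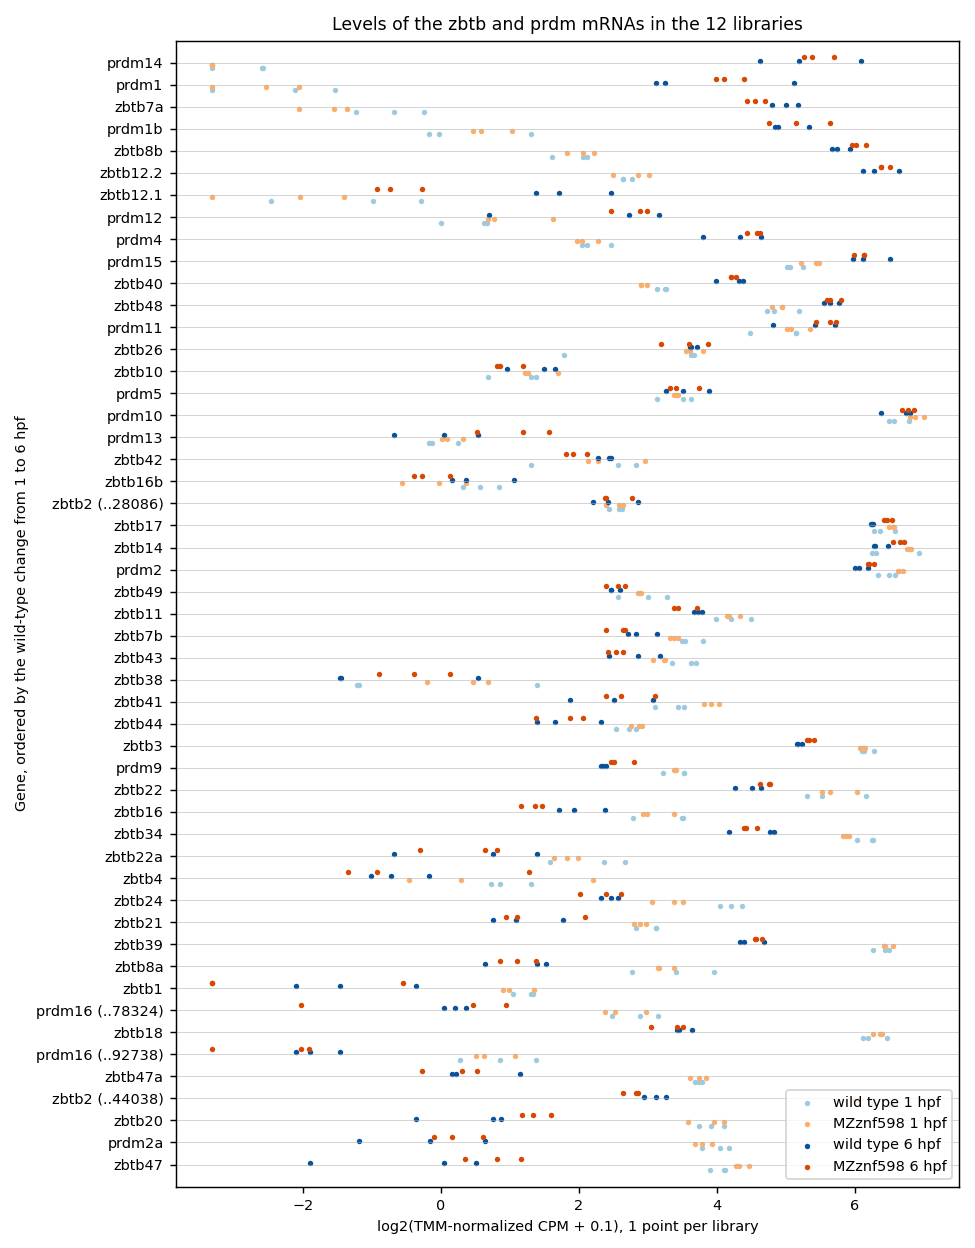
Level of each of the 51 members in the 12 libraries, as log2(CPM + 0.1), with genes ordered by their wild-type change from 1 to 6 hpf and 1 point per library. Points at the left edge are libraries with 0 counts. At the top of the plot, prdm14 went from at most 0.0676 CPM at 1 hpf to 24.6 to 67.7 CPM at 6 hpf in wild type, and at the bottom zbtb47 went from 14.9 to 17.3 CPM to 0.169 to 1.32 CPM.

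The change from 1 to 6 hpf in wild type was measured to sort maternal from zygotic members. More members fell than rose, and 19 of the 24 that fell were zbtb genes, which make up 36 of the 51 members. Of 51 members, 24 fell (47.1%, against 33.9% of all genes tested) and 12 rose (23.5%, against 36.5%), by edgeR's quasi-likelihood test at an adjusted p below 0.01. The 3 libraries at 6 hpf were all below those at 1 hpf for 27 members (38.2% of all genes) and all above for 12 (39.1%). The zbtb genes gave 19 falls and 6 rises of 36, and the prdm genes 5 falls and 6 rises of 15. The median log2 fold change was -0.52 over the members, -0.82 over zbtb, 0.14 over prdm and -0.02 over all genes. By the study's limit of a log2 fold change of 1 in either direction, 19 members were maternal, 21 maternal-zygotic and 11 zygotic, which is 37.3%, 41.2% and 21.6% of them against 28.4%, 42.7% and 29.0% of all genes. Whole embryos were sequenced, so the values do not show in which cells an mRNA was held at either stage.

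The prdm genes that rose include factors of early cell fate. For prdm14 (ENSDARG00000045371), required for germ cells and pluripotency in mouse, the wild-type libraries had 0.0656, 0.0676 and 0 CPM at 1 hpf and 24.6, 36.3 and 67.7 CPM at 6 hpf. In MZznf598 it had 0 counts in all 3 libraries at 1 hpf and 51.7, 41.6 and 38.3 CPM at 6 hpf. The mRNA was thus nearly absent before the MZT in all 6 libraries. By the group means it was at least 175-fold higher at 6 hpf in wild type and at least 182-fold higher in MZznf598. These bounds are from a floor of 3 counts in the shallowest library. Without the third wild-type library at 6 hpf the bound was 124-fold, and without the first MZznf598 library at 6 hpf it was 166-fold. For prdm1 (ENSDARG00000002445), which encodes Blimp1, a driver of plasma cell and germ cell fate in mouse, wild type had 0.131, 0 and 0.245 CPM at 1 hpf and 8.56, 9.40 and 34.7 CPM at 6 hpf. The rise was at least 71.7-fold in wild type and at least 74.6-fold in MZznf598, where the 6 hpf libraries had 17.1, 15.8 and 21.0 CPM. The third wild-type library was far above the other 2 at 6 hpf, and without it the rise in wild type was at least 36.7-fold. The related prdm1b (ENSDARG00000098777) went from 0.788, 0.878 and 2.37 CPM to 28.6, 40.4 and 29.4 CPM, or 4.65 on the log2 scale (SE 0.36, edgeR adjusted p = 5.06e-08). 

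Other prdm genes rose less. For prdm4 (ENSDARG00000017366), whose mouse product binds the arginine methyltransferase Prmt5, levels went from 4.0, 5.40 and 4.24 CPM to between 13.8 and 24.9 CPM, a rise of 2.09 on the log2 scale (SE 0.22, edgeR adjusted p = 9.27e-07). The groups did not overlap, and the lowest 6 hpf library was the first. For prdm15 (ENSDARG00000098867), which maintains naive pluripotency in mouse, levels went from 38.0, 33.1 and 32.2 CPM to 63.0, 69.6 and 90.5 CPM (log2 fold change 1.11, SE 0.13, edgeR adjusted p = 4.85e-06). The prdm12 mRNA, whose human product is needed for pain-sensing neurons, had 1.44, 1.49 and 0.898 CPM at 1 hpf and 8.82, 6.49 and 1.52 CPM at 6 hpf in wild type. Its rise of 2.14 on the log2 scale (SE 0.49, edgeR adjusted p = 0.00137) rested on the first and second libraries, since the third was barely above the 1 hpf levels, and the call was lost without the first. 

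Among zbtb genes, 3 had the largest rises. The zbtb7a mRNA (ENSDARG00000039899), which encodes the fetal globin repressor LRF in human, had 0.525, 0.743 and 0.326 CPM in wild type at 1 hpf and 27.7, 32.0 and 35.9 CPM at 6 hpf (log2 fold change 5.84, SE 0.24, edgeR adjusted p = 1.07e-10). The zbtb8b mRNA (ENSDARG00000035889) went from 4.07, 4.26 and 2.94 CPM to 51.0, 53.1 and 60.9 CPM, and zbtb12.2 (ENSDARG00000070658) from 6.11, 6.15 and 6.69 CPM to 69.5, 77.3 and 99.5 CPM. No 6 hpf library of these 3 genes came near a 1 hpf library, and the log2 fold changes of the latter 2 were 3.86 (SE 0.16) and 3.70 (SE 0.16). Next came zbtb12.1 (ENSDARG00000103949), from 0.722, 0.405 and 0.0816 CPM to 2.50, 3.18 and 5.41 CPM (3.09, SE 0.58, edgeR adjusted p = 0.000254). This rise started from at most 11 counts in any library. It was not called in MZznf598 (1.83, SE 0.88, edgeR adjusted p = 0.0707). The rises of zbtb40 and of zbtb48, whose human product TZAP binds telomeres, were smaller, at 1.02 (SE 0.14) and 0.72 (SE 0.13) on the log2 scale. Of the 12 members that rose, 8 had their highest wild-type level at 6 hpf in the third library and 10 their lowest in the first. Without the third wild-type library of both stages (an alternative added late, once the libraries had been compared), 13 members rose and 23 fell.

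The members that fell hold several genes known from later organs. The zbtb18 mRNA (ENSDARG00000028228), which encodes the neurogenesis factor RP58 in mouse, had 72.9, 69.6 and 88.2 CPM at 1 hpf and 12.4, 10.6 and 10.8 CPM at 6 hpf (log2 fold change -2.77, SE 0.14, edgeR adjusted p = 6.63e-10). For zbtb20 (ENSDARG00000005586), a repressor of alpha-fetoprotein in mouse liver, the values were 15.0, 17.0 and 13.2 CPM and 1.58, 1.72 and 0.677 CPM (-3.46, SE 0.28). Every 6 hpf library of both genes lay below every 1 hpf library. The zbtb39 mRNA (ENSDARG00000019265) went from 86.5, 76.8 and 89.7 CPM to 20.9, 20.1 and 25.5 CPM (-1.93, SE 0.11), and zbtb34 (ENSDARG00000013492) from 76.2, 76.9 and 65.0 CPM to 28.2, 27.1 and 17.9 CPM (-1.57, SE 0.15). In both cases the fall left a measurable level after the MZT. The largest falls were those of zbtb47 (ENSDARG00000079547; -4.26, SE 0.33) and prdm2a (ENSDARG00000090721; -4.15, SE 0.31), which reached 0.169 to 1.32 and 0.338 to 1.45 CPM. The zbtb47a mRNA (-3.22, SE 0.26) and one zbtb2 gene also fell by more than 3 on the log2 scale. The prdm9 mRNA, whose product marks sites of meiotic recombination in mouse and human, fell from 9.19 to 11.4 CPM to 4.90 to 5.16 CPM (-1.08, SE 0.17).

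**Figure D2:**
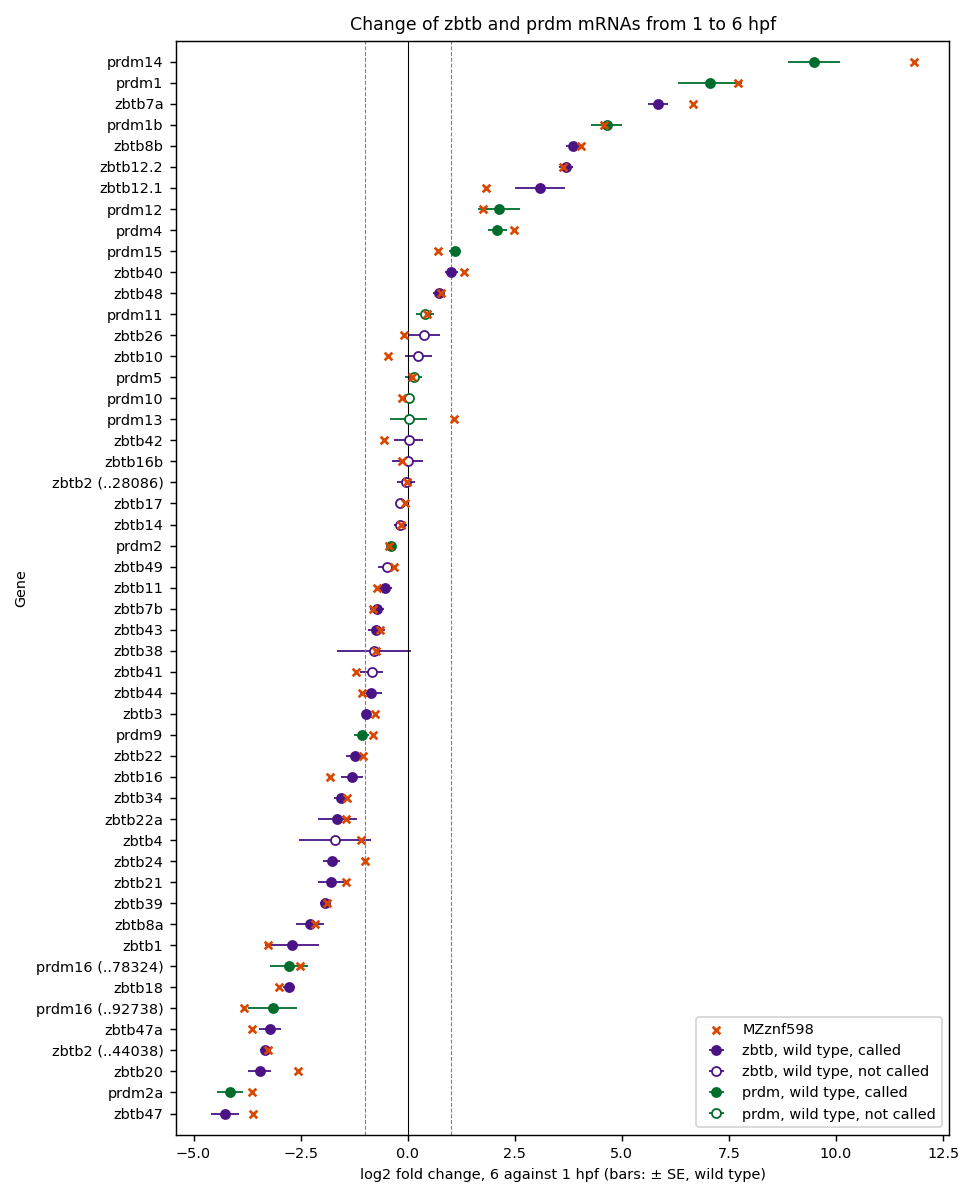
Log2 fold change from 1 to 6 hpf for each member in wild type (circles with ± SE; filled where the edgeR adjusted p was below 0.01) and in MZznf598 (crosses). Dashed lines mark a log2 fold change of 1 in either direction. In wild type 12 members rose and 24 fell, and no called member moved in opposite directions in the 2 genotypes; the fitted values of prdm14, prdm1 and one prdm16 gene rest on groups at or under 3 counts.

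Of the 15 members not called in wild type, a few had levels precise enough to bound the change. The zbtb17 mRNA (ENSDARG00000074548), which encodes the Myc partner MIZ1 in human, had 82.1, 77.7 and 95.8 CPM at 1 hpf and 76.8, 75.6 and 74.8 CPM at 6 hpf, a log2 fold change of -0.17 (95% interval -0.36 to 0.02). The prdm10 mRNA (ENSDARG00000104251), an activator of folliculin expression in human cells, gave 0.04 (95% interval -0.21 to 0.29). For both genes the interval lay within a 1.5-fold change in either direction. The zbtb14 mRNA (ENSDARG00000098273), first described as the Myc promoter repressor ZF5 in mouse, had 78.7, 76.2 and 122 CPM at 1 hpf and 78.5, 77.3 and 89.3 CPM at 6 hpf (-0.18, SE 0.15). The third wild-type library was the highest at both stages. The zbtb16b mRNA had 1.14 to 1.69 CPM at 1 hpf and 1.01 to 1.98 CPM at 6 hpf (0.00, SE 0.37), whereas zbtb16, which encodes the spermatogonial stem cell factor PLZF in mouse, fell by 1.31 on the log2 scale (SE 0.26).

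Genes that share a number in their symbol did not always move together. The symbols zbtb2 and prdm16 each stand for 2 Ensembl genes. The zbtb2 gene ENSDARG00000044038 went from 91.1, 90.4 and 77.0 CPM to 8.56, 9.53 and 7.61 CPM in wild type (-3.32, SE 0.12), while ENSDARG00000028086 had 6.04, 5.88 and 5.30 CPM and 5.27, 4.5 and 7.10 CPM (-0.04, SE 0.21). The human product of this symbol represses the cell cycle inhibitor p21. The zbtb8a mRNA fell from 15.4, 10.5 and 6.69 CPM to 2.77, 1.46 and 2.54 CPM (-2.28, SE 0.33), while zbtb8b rose 14.5-fold. The prdm2 mRNA, whose human product RIZ methylates histone H3, fell by 0.39 on the log2 scale (SE 0.09), from 80.6 to 95.2 CPM to 63.8 to 72.6 CPM, while prdm2a fell 17.7-fold. The zbtb7a mRNA rose by 5.84 on the log2 scale (SE 0.24), while zbtb7b fell by 0.72 (SE 0.17). Some other groups moved the same way. The prdm16 genes, named after a brown fat regulator in mouse, fell by 2.76 on the log2 scale (ENSDARG00000078324, SE 0.45) and at least 3.50-fold (ENSDARG00000092738), zbtb22 and zbtb22a fell by 1.23 (SE 0.21) and 1.64 (SE 0.45), and zbtb47 and zbtb47a both fell. The difference within each group of genes was not tested. Reads that aligned to more than 1 place were not counted, so values of genes with near-identical stretches are uncertain.

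**Figure D3:**
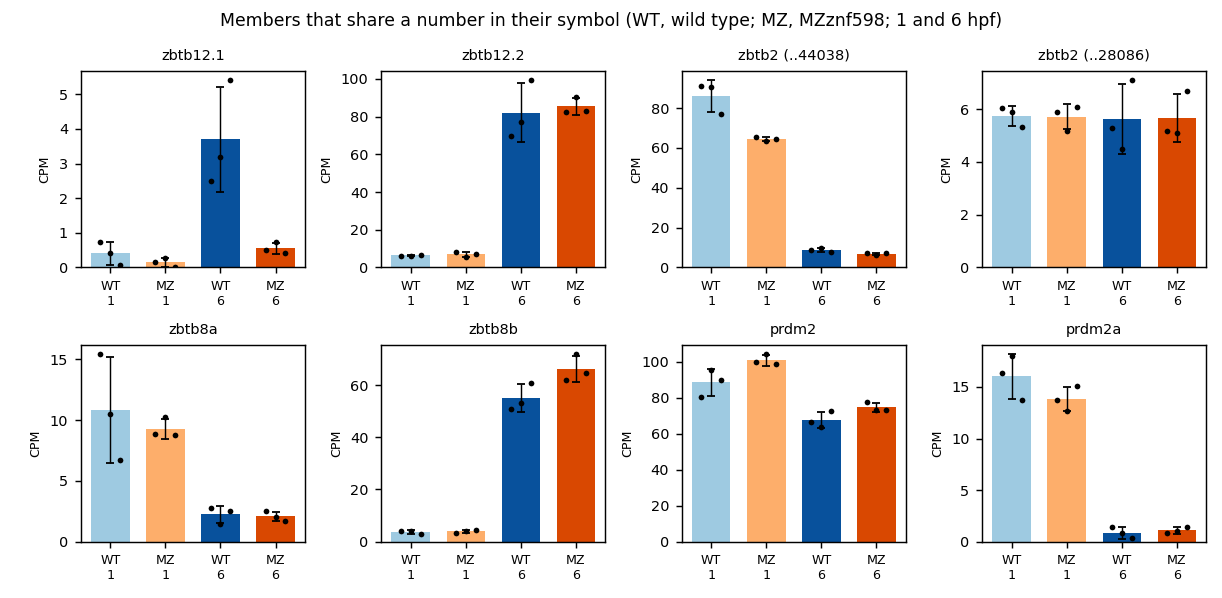
Level of 4 groups of members with a shared number in their symbol, in TMM-normalized CPM, by genotype and stage (bars, mean; error bars, SD, n = 3; points, libraries; each panel has its own axis). The zbtb2 gene ENSDARG00000044038 fell by 3.32 on the log2 scale in wild type beside ENSDARG00000028086 at 4.5 to 7.10 CPM after the MZT, and zbtb8b rose while zbtb8a fell.

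Nearly the same members changed over the MZT without Znf598. In MZznf598, 11 members rose (36.3% of all genes did) and 24 fell (33.7%), with a median log2 fold change of -0.66. The libraries of the stages did not overlap for 29 lower (42.3% of all genes) and 14 higher members (42.7%). All 11 that rose there were among the 12 of wild type (91.7%), and 23 of the 24 that fell were shared (95.8% of either list). The 2 genotypes differed in calls only for zbtb12.1 and zbtb22a, called in wild type alone, and zbtb41, called in MZznf598 alone. With the replicate block within genotype zbtb22a was called in both, zbtb4 in wild type alone and zbtb11 in MZznf598 alone. No member was called in opposite directions. The overlap of calls over all genes was not counted, so these shared calls are a description and not a trait particular to the members. The difference between the genotypes is tested by the interaction given last.

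The comparison at 6 hpf asks which mRNAs differ without Znf598 after the MZT. No member was called in either direction at 6 hpf by edgeR, and most differences were small. Of 51 members, 0 were called up (1.76% of all genes were) and 0 down (1.75%). At an unadjusted p below 0.05, 4 were higher and 4 lower, against 11.3% and 10.9% of all genes, and DESeq2 called 0 members up and 1 down, against 3.8% and 3.22%. All 3 MZznf598 libraries were above all 3 wild-type libraries for 7 members (14.4% of all genes) and below them for 7 (13.6%). The median log2 fold change was 0.03, -0.06 for zbtb and 0.14 for prdm, against -0.01 over all genes, and it ran from -0.08 to 0.07 with 1 library left out. The difference was within 1.5-fold for 42 members (82.4%, against 80.8% of all genes). The 95% interval stayed within a 2-fold change for 33 members and reached or passed it for 18, among which that of zbtb12.1 lay wholly beyond it.

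The member with the largest difference at 6 hpf was zbtb12.1 (ENSDARG00000103949). It had 2.50, 3.18 and 5.41 CPM in wild type and 0.499, 0.729 and 0.428 CPM in MZznf598 (log2 fold change -2.70, SE 0.63, edgeR adjusted p = 0.018). Each MZznf598 library lay under each wild-type library and close to the floor of 3 counts, 0.499 CPM in the shallowest. DESeq2 called it, with an adjusted p of 0.00406. With 1 library left out, the edgeR adjusted p ran from 0.00754, without the third wild-type library at 1 hpf, to 0.0903, without the third MZznf598 library at 6 hpf. At 1 hpf zbtb12.1 had 0.722, 0.405 and 0.0816 CPM in wild type and 0.144, 0.279 and 0 CPM in MZznf598. That difference was -1.44 (SE 0.81, edgeR adjusted p = 0.388), from at most 11 counts in any library. The difference at 6 hpf minus that at 1 hpf was -1.26 (SE 1.18, edgeR adjusted p = 0.819). A difference that arose after 1 hpf was therefore not shown. The RefSeq assembly GRCz12tu lists zbtb12.2 as the next protein-coding gene on chromosome 19, and zbtb12.2 had 69.5, 77.3 and 99.5 CPM in wild type and 82.7, 90.6 and 83.3 CPM in MZznf598 (0.06, 95% interval -0.24 to 0.36).

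The other members with the lowest p-values at 6 hpf were not called. For prdm13, a regulator of dorsal neural tube and amacrine neurons in mouse, wild type had 0.527, 0.927 and 1.35 CPM and MZznf598 1.33, 2.19 and 2.85 CPM (1.22, SE 0.42, edgeR adjusted p = 0.0959), and the groups overlapped. For zbtb20 wild type had 1.58, 1.72 and 0.677 CPM and MZznf598 2.16, 2.92 and 2.42 CPM (0.87, SE 0.33, edgeR adjusted p = 0.132). Its groups did not overlap, but without the third wild-type library of both stages the difference was 0.60. Among the remaining members higher in MZznf598 were zbtb8b (0.27, SE 0.13), zbtb17 (0.22, SE 0.09) and zbtb47 (0.96, SE 0.43). The zbtb47 difference was 0.56 without the third wild-type library of both stages and 1.47 in the highest fit with 1 library removed, that without the first wild-type library at 6 hpf. For zbtb7a, MZznf598 had 23.5, 21.4 and 25.8 CPM, below the 27.7 to 35.9 CPM of wild type (-0.43, SE 0.17, edgeR adjusted p = 0.156). Other members lower in MZznf598 were zbtb16 (-0.70, SE 0.30), zbtb16b (-0.80, SE 0.44; -0.47 without the first wild-type library at 6 hpf) and the zbtb2 gene ENSDARG00000044038 (-0.35, SE 0.14). For prdm14, prdm1b and zbtb24 the differences were 0.04 (SE 0.30), 0.18 (SE 0.28) and -0.10 (SE 0.22), and each changed sign when some library was left out.

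**Figure D4:**
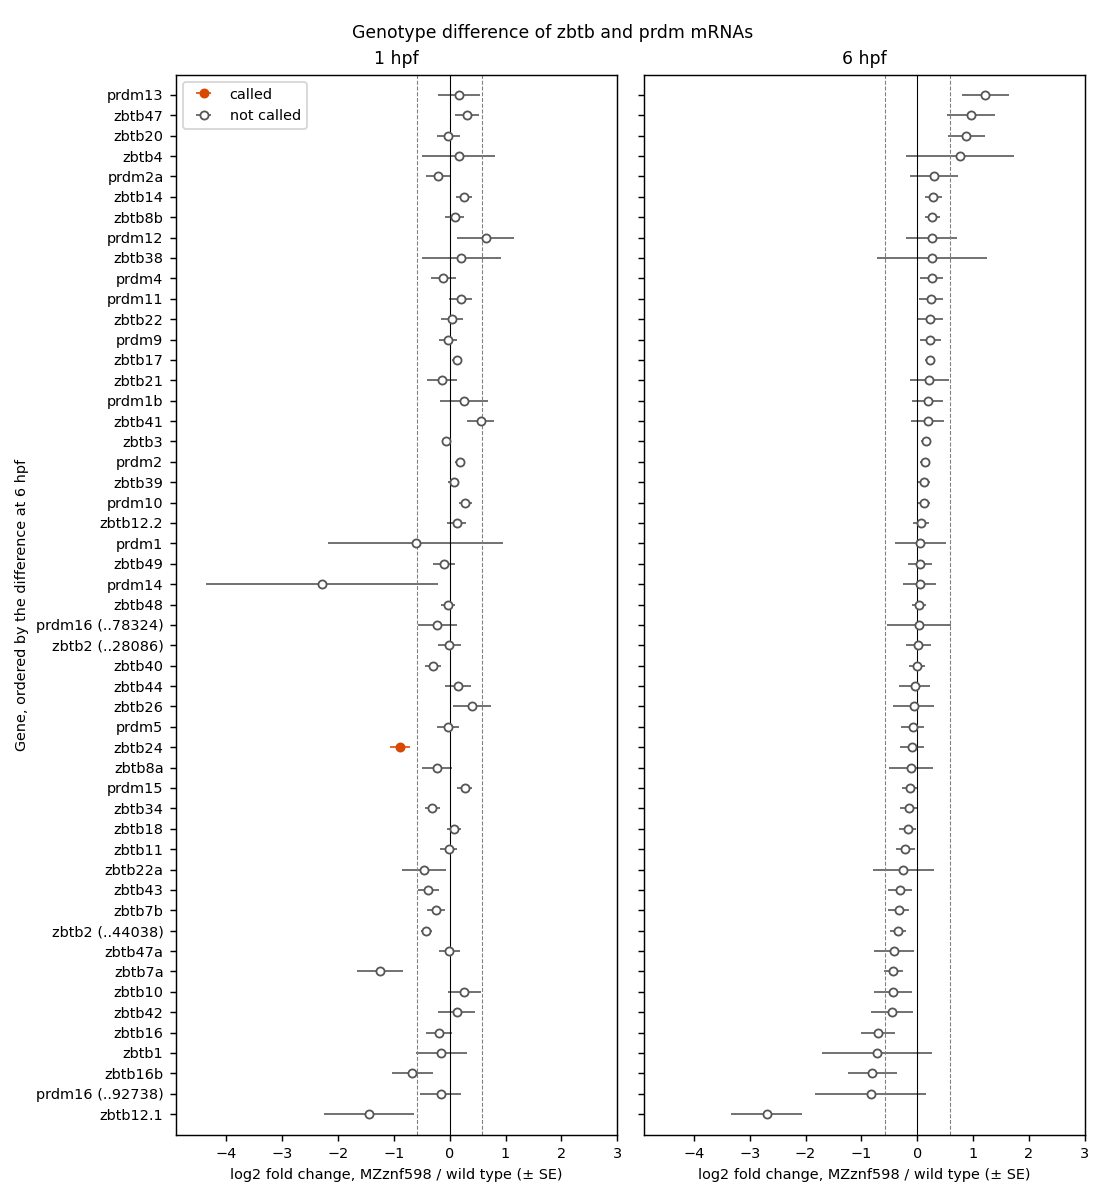
Log2 fold change of MZznf598 against wild type for each member at 1 and 6 hpf, with ± SE (filled where the edgeR adjusted p was below 0.01; dashed lines, a 1.5-fold change). At 6 hpf no point is filled, and at 1 hpf zbtb24 alone is filled, at -0.88; the wide bars of prdm14 and prdm1 at 1 hpf come from groups at or under 3 counts.

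At 1 hpf the comparison concerns mRNA that the egg received. Here 1 member, zbtb24, was called down (2.23% of all genes were) and 0 up (1.6%). At an unadjusted p below 0.05, 3 members were higher and 4 lower, against 9.04% and 10.1% of all genes. DESeq2 called 0 members up and 2 down, against 3.02% and 3.64%. All 3 MZznf598 libraries were above wild type for 5 members and below for 7, against 12.9% of all genes in either direction. The median log2 fold change was -0.03, against 0 over all genes, and 44 members were within 1.5-fold (86.3%, against 79.2%). The 95% interval reached a 2-fold change for 14 members.

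The zbtb24 mRNA (ENSDARG00000075533) encodes a protein needed for DNA methylation of pericentromeric repeats, and its human gene is mutated in ICF syndrome, an immunodeficiency. At 1 hpf wild type had 16.4, 18.4 and 20.4 CPM and MZznf598 10.3, 8.24 and 11.3 CPM, a 1.85-fold lower level (-0.88, SE 0.18, edgeR adjusted p = 0.00727). Every MZznf598 library was below every wild-type library. At 6 hpf the values were 5.79, 4.90 and 5.41 CPM in wild type and 5.99, 3.94 and 5.13 CPM in MZznf598, and these groups overlapped. The mRNA fell by 1.77 on the log2 scale (SE 0.19) from 1 to 6 hpf in wild type and by 0.99 (SE 0.20) in MZznf598. The call at 1 hpf was lost in 9 of 12 fits with 1 library removed, with an adjusted p of up to 0.0445, without the second MZznf598 library at 1 hpf. It was also lost against a 1.5-fold change (edgeR adjusted p = 0.285) and with the 6 libraries of 1 hpf alone (edgeR adjusted p = 0.0185).

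Of the other members at 1 hpf, the zbtb2 gene ENSDARG00000044038 had 91.1, 90.4 and 77.0 CPM in wild type and 65.6, 63.5 and 64.4 CPM in MZznf598 (-0.42, SE 0.10, edgeR adjusted p = 0.0198). The groups did not overlap, and DESeq2 called it. The zbtb7a mRNA had 0.287, 0.140 and 0.241 CPM in MZznf598 against 0.326 to 0.743 CPM in wild type (-1.25, SE 0.42, edgeR adjusted p = 0.13). The 1 hpf values of zbtb7a rest on at most 4 counts in any MZznf598 library and 11 in any wild-type library, near the floor of 3 counts. The nearest libraries of the 2 genotypes, at 0.287 and 0.326 CPM, were barely apart. The MZznf598 libraries were below wild type at both stages, without a call at either, for zbtb7a, zbtb7b and this zbtb2 gene. For prdm2 they were above at both stages, also without a call. The share of all genes with such a pattern was not counted. The further members with the lowest p-values in each direction were not called with all libraries (edgeR adjusted p of 0.196 to 0.398). Higher were zbtb41 (0.55, SE 0.24), prdm10 (0.28, SE 0.11), prdm15 (0.27, SE 0.13), zbtb14 (0.26, SE 0.15) and prdm2 (0.19, SE 0.09). Lower were zbtb43 (-0.39, SE 0.19) and zbtb34 (-0.32, SE 0.14).

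The third wild-type library weighed on the genotype calls. Without it at both stages, zbtb24, zbtb34 and the zbtb2 gene ENSDARG00000044038 were called down at 1 hpf and prdm10 and zbtb14 up. At 6 hpf zbtb12.1 was then called down (-2.34), and prdm1 and zbtb14 up. The prdm1 difference at 6 hpf went from 0.05 (edgeR adjusted p = 0.968) with all libraries to 1.00 (edgeR adjusted p = 0.00952) without the third wild-type libraries. These are 3 down and 2 up of 51 at 1 hpf, against 5.74% and 6.38% of all genes in the same fit, and 1 down and 2 up at 6 hpf, against 5.83% and 5.6%. The zbtb14 difference was then 0.51 on the log2 scale at 1 hpf (edgeR adjusted p = 5.04e-05) and 0.36 at 6 hpf (edgeR adjusted p = 0.00192), against 0.26 and 0.29 with all libraries. In the remaining wild-type libraries zbtb14 had 76.2 and 78.7 CPM at 1 hpf, against 108 to 112 CPM in MZznf598.

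The interaction, which is the genotype difference at 6 hpf minus that at 1 hpf, was called for 0 members in either direction (0.284% of all genes up and 0.164% down). At an unadjusted p below 0.05, 2 members were up and 0 down, against 5.65% and 5.38% of all genes. DESeq2 called 0 either way, against 0.998% and 0.764%. The main fit does not use the replicate numbers and treats the libraries of the 2 stages as independent. With the replicate block within genotype, the median interaction was 0.06 over the members, against 0.00 over all genes. Without the third wild-type library of both stages 0 members were called either way, against 1.43% of all genes up and 1.78% down. The 2 members with a low unadjusted p were zbtb20 (0.90, SE 0.39, edgeR adjusted p = 0.404) and zbtb24 (0.78, SE 0.28, edgeR adjusted p = 0.265). The difference of zbtb24 between the genotypes at 1 hpf was therefore not shown to differ from that at 6 hpf.

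**Figure D5:**
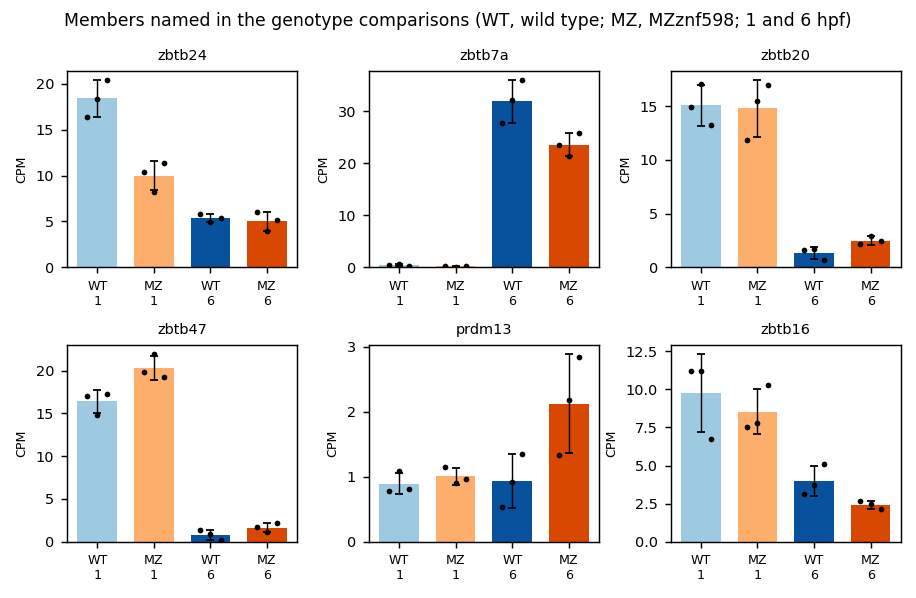
Level of 6 members named in the genotype comparisons, in TMM-normalized CPM, by genotype and stage (bars, mean; error bars, SD, n = 3; points, libraries; each panel has its own axis). For zbtb24 the 3 MZznf598 libraries at 1 hpf sit between 8.24 and 11.3 CPM, below the wild-type libraries, and at 6 hpf the groups overlap.

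Partners of these proteins were listed to set the members beside the machinery they use. Of 17 symbols listed as Zbtb corepressors and ubiquitin ligase partners, 13 were matched to genes. The Cul3 genes cul3a and cul3b, and sin3aa and sin3ab, were not matched under these symbols and so were not examined. Of the 13 partners tested, 0 were called between genotypes at either stage, and 7 rose and 5 fell from 1 to 6 hpf in wild type. Of all genes, 1.6% to 2.23% were called in a direction between genotypes, and 36.5% rose and 33.9% fell in wild type. Rising partners included tbl1xr1a (5.89, SE 0.31), a subunit of the NCoR corepressor complex, the histone deacetylase hdac1 (1.60, SE 0.07) and the insulator factor ctcf (2.12, SE 0.09). The corepressors bcorl1 (-3.03, SE 0.14) and bcor (-1.74, SE 0.11) fell. Of 19 Prdm partner symbols listed, 10 were matched, to 11 genes tested. Not matched were ehmt1b, suv39h1a, suv39h1b, ctbp2b, wdr77, suz12a, suz12b, tle3a and tle3b. Of the 11 Prdm partners tested, 4 rose and 2 fell in wild type (36.5% and 33.9% of all genes). Rising ones included the Prdm14 cofactor cbfa2t2 (7.29, SE 0.37), the H3K27 methyltransferase ezh2 (1.11, SE 0.10) and the demethylase kdm1a (1.03, SE 0.08). The cbfa2t2 rise started from at most 8 counts in any wild-type library at 1 hpf, so its size is uncertain. The kdm1a cofactor rcor1 fell (-1.42, SE 0.09). The corepressor ctbp2a was called up in MZznf598 at 6 hpf, with 70.9, 45.4 and 61.4 CPM in wild type and 95.7, 107 and 95.4 CPM in MZznf598 (0.75, SE 0.13, edgeR adjusted p = 0.0034), and no other Prdm partner was called between genotypes.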

How the data were processed

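The deposited values are read counts per Ensembl gene, 1 table per library, made by the authors from ribosomal RNA-depleted, stranded, single-end libraries aligned to GRCz11 with STAR, keeping reads with 1 alignment and at most 1 mismatch, and counted with featureCounts. The annotation release and strand setting are not given in the sources used here. Reads with more mismatches to the reference, as a diverged stock can give, are lost. The main test was edgeR 4.0.16 in R 4.3.3, with DESeq2 1.42.0 as an alternative. Of 25432 genes, the 15829 that exceeded 1 CPM in 3 or more of the 12 libraries were kept. Library sizes were scaled by TMM, and a quasi-likelihood model with 4 group means and the robust option was fitted (common biological coefficient of variation 0.154). Tests were 2-sided with Benjamini-Hochberg adjustment over all genes tested, and calls were made at an adjusted p below 0.01. The standard error (SE) is the absolute log2 fold change over the square root of F. The script was tested on simulated data.

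Symbols come from a table of identifiers and names (23608 genes matched) and are written in lower case. No sequences were used. Where no library of a group exceeded 3 counts, the fold is given as a bound against that floor, which covers counting error only.

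Named genes are those called between genotypes, the 5 higher and 5 lower with the lowest p in each genotype comparison, the 10 rising and 10 falling with the lowest p and at least a 2-fold change in wild type, symbol groups, and genes with known roles. Others named beside these were chosen after their values were seen. The members and lists were chosen with earlier results of these data known.

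Deviations over the genes were compared between libraries. Within a genotype, same-numbered libraries of different stages gave correlations of 0.156 to 0.224 (6 pairs), against -0.181 to 0.0646 for different numbers. Between genotypes at 1 stage, same numbers gave -0.126 to 0.0868 and different numbers -0.168 to 0.193. The highest of the latter lay within the range of the same-numbered pairs of a genotype. The numbers may thus pair the stages within a genotype, but this was not shown.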

Additional observations from a re-analysis of the deposited data

How the results depend on the processing

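Counts of members called held within 1.5 times under the alternatives other than these. At 6 hpf, 0 called down became 1 at an adjusted p below 0.05 and with DESeq2, and 0 to 1 with 1 library left out. At 1 hpf, 1 called down became 2 at an adjusted p below 0.05 and with DESeq2, 0 against a 1.5-fold change, 0 with the 6 libraries compared alone, and 0 to 2 with 1 library left out, and 0 called up became 0 to 1. In MZznf598, falls from 1 to 6 hpf went from 24 to 15 against a 1.5-fold change. Without the third wild-type library of both stages, chosen after the data were seen, 2 were called up and 1 down at 6 hpf and 2 up and 3 down at 1 hpf. None of the genes named for a call or a low p changed sign in that comparison, though values near 0 of other members did, and with 1 library left out the median over the members ran from -0.08 to 0.07 at 6 hpf and from -0.06 to 0.01 at 1 hpf. With 1 library left out, wild type had 11 to 12 rises and 19 to 24 falls, and MZznf598 10 to 11 and 22 to 25. Library totals alone moved the wild-type median over all genes from -0.02 to -0.55 (members -1.05), and RLE size factors to 0.12 (members -0.38). With the replicate block within genotype, 13 members rose and 23 fell in wild type (zbtb11 and zbtb43 lost, prdm11 and zbtb4 gained) and 12 and 24 in MZznf598 (zbtb43 lost, prdm11 and zbtb22a gained). With the replicate block by number over all groups, zbtb24 at 1 hpf was -0.90 (edgeR adjusted p = 0.00792). That block assumes that numbers match across genotypes, which the correlations between libraries did not show, so no weight is placed on it. The block and 6-library fits of the medians were added after the data were seen. Zinc finger counts per protein were not run, since no protein sequences were used. Low counts limit the members near 1 CPM.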

Other observations

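Of 10 BTB zinc finger or PR domain genes tested under other symbols, 3 rose and 5 fell from 1 to 6 hpf in wild type (36.5% and 33.9% of all genes). The mecom mRNA, a Prdm relative known from blood stem cells in mouse, was the only one called between genotypes. At 1 hpf it had 0.328, 0.203 and 0.163 CPM in wild type and 1.36, 1.12 and 0.802 CPM in MZznf598 (2.17, SE 0.41, edgeR adjusted p = 0.0052), and the groups did not overlap. At 6 hpf it had 14.6, 22.0 and 24.9 CPM in wild type and 34.8, 30.6 and 34.5 CPM in MZznf598 (0.70, SE 0.20, edgeR adjusted p = 0.045), again without overlap. The rise from 1 to 6 hpf was 6.36 on the log2 scale (SE 0.31) in wild type and 4.90 (SE 0.25) in MZznf598. The interaction of mecom was not called (-1.46, SE 0.46, edgeR adjusted p = 0.188). No wild-type library had more than 5 mecom counts at 1 hpf, so the 1 hpf difference and the wild-type rise rest on low counts. The tumor suppressor gene hic1 rose by 2.06 (SE 0.26) and hic2 by 0.87 (SE 0.07) in wild type.

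Some members differed most between libraries of 1 group, and these were chosen after their values were seen. The zbtb4 and zbtb38 mRNAs encode relatives of Kaiso that bind methylated DNA. For zbtb4 the first MZznf598 library had 4.53 CPM at 1 hpf and 2.33 CPM at 6 hpf, against 0.628 and 1.12 CPM and 0.292 and 0.428 CPM in the others. For zbtb38 the third wild-type library had 2.53 CPM at 1 hpf and 1.35 CPM at 6 hpf, against 0.263 to 0.338 CPM in the other wild-type libraries. The library of the same number was thus the high one at both stages for each gene. For zbtb26 the third wild-type library had 3.35 CPM at 1 hpf, against 12.3 and 12.6 CPM in the others, and 13.0 CPM at 6 hpf, so its low level did not recur.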
